A study of Mus musculus with 6 samples.

Results

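The genes described here encode LAMP glycoproteins and other proteins that build or serve the lysosomal membrane. There are 10 of them (Lamp1, Lamp2, Cd63, Scarb2, Npc1, Npc2, Tmem192, Laptm4a, Laptm4b and Litaf) among 16583 genes tested. They were chosen by name, with earlier results of these data known. Each had exactly 1 transcript cluster on the array with no other gene symbol, so all 10 of 10 were measured. The samples were Neuro2a cells, a mouse neuroblastoma line, and the study asked which genes lie downstream of the transcription factors USF1 and USF2. Of 6 arrays, 3 came from cells labelled USF1,2-RNAi, transfected by lipofection with pcDNA6.2-GW/EmGFP-miR vectors that express microRNA-type hairpins against USF1 or USF2, and 3 from cells labelled with the empty vector. The labels give no time after transfection, no share of cells that took up a vector and no separate clones. The 3 arrays within a group are labelled as biological replicates, but whether each had its own culture is not said, so a p-value here reflects sample-to-sample spread that could be technical in origin. NPC2 is a soluble protein of the lysosome's interior, so the name of the group fits it less well.

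The lysosome is bounded by a single membrane whose inner face is lined by heavily glycosylated proteins, chiefly LAMP1 and LAMP2, which shield the membrane from the enzymes inside. Other proteins of this membrane receive newly made enzymes, export cholesterol or help to sort lipids and signalling complexes. The USF proteins belong to the helix-loop-helix leucine zipper factors and bind E-boxes, and the palindromic E-box CACGTG is also the core of the element through which TFEB and its relatives drive lysosomal genes.

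E-boxes were looked for in promoter windows of RefSeq (build GRCm38.p6) that run from 250 bases before to 50 bases after an annotated transcript start. The expression changes had been fitted before this search, so its counts are no prior prediction. Windows were read for 8 of the 10 genes, 1 each, and none was read for Npc1 or Laptm4b. The letters searched were CACGTG, which reads the same on both strands, and the variant CACATG, read on either strand as CACATG or CATGTG. Lamp1 held 4 copies of CACGTG, Scarb2 held 1 CACATG, and the other 6 windows held neither. Of all 32851 windows, 7.15% held at least 1 CACGTG and 14.2% at least 1 variant, while 8 windows (0.0244%) held 4 or more copies of CACGTG. Of the 16377 windows of tested genes, 9.02% held at least 1 CACGTG, 9.60% at least 1 variant, and 4 windows (0.0244%) held 4 or more copies. The Cd63 window lies at a start inside the annotated gene and does not cover the gene's first base. That of Tmem192 is also at an inner start but does cover the gene's first base. Windows at other starts of these genes were not searched. The longer form TCACGTGA, which contains CACGTG, stood in 0.974% of all windows and 1.48% of those of tested genes. It was in 0 of the 8.

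The windows below show the contrast between Lamp1 and its paralogue Lamp2, with Scarb2 for its single variant. Mfsd1, which encodes a lysosomal transporter, was set beside Lamp1 after its values were seen, because it was the one tested gene with more copies. Capitals mark CACGTG or CACATG, and each sequence runs 5′ to 3′ on the gene's own strand.
Lamp1 (chr8:13158911-13159210, plus strand): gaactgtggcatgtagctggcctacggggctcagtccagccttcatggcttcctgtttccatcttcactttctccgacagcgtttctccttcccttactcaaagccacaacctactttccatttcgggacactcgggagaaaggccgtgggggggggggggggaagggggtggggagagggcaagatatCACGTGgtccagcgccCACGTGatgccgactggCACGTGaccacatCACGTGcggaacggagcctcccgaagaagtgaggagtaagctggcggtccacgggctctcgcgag
Mfsd1 (chr3:67582518-67582817, plus strand): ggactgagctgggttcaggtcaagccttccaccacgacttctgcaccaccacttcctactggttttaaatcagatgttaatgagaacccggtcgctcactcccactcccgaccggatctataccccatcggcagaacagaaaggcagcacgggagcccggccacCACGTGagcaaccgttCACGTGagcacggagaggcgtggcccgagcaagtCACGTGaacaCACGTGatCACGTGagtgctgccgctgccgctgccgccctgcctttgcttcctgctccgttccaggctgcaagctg
Lamp2 (chrX:38456411-38456710, minus strand): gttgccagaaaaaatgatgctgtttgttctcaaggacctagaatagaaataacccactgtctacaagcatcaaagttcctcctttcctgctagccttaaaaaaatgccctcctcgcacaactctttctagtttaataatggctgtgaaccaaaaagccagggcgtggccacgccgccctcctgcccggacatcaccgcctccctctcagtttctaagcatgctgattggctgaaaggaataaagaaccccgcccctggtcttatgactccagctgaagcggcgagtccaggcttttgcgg
Scarb2 (chr5:92505608-92505907, minus strand): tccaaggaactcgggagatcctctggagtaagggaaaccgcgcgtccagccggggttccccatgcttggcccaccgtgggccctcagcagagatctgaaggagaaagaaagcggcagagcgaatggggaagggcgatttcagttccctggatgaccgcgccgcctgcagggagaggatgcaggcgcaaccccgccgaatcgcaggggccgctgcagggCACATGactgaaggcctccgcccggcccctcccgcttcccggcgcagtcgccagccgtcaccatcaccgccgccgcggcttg

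In Lamp1 the copies began 61, 45, 28 and 15 bases before the transcript start, all within 52 bases. Their first bases were 16, 17 and 13 bases apart. Mfsd1 held 5 copies, beginning 86, 70, 36, 26 and 18 bases before its start, and 3 of them had the longer form TCACGTGA. A match is a description of these letters and does not show binding.

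**Figure D1:**
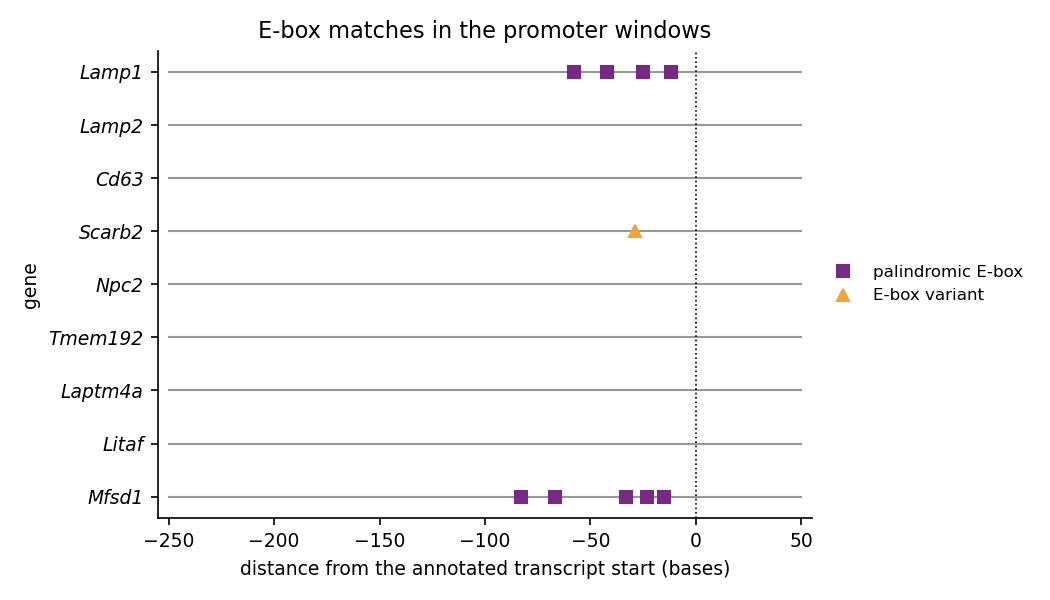
Positions of palindromic E-boxes (CACGTG, squares) and of the variant CACATG (triangle) in the promoter windows of 8 lysosomal membrane genes and of Mfsd1, by distance in bases from the annotated transcript start (dotted line). Lamp1 holds 4 squares and Mfsd1 holds 5, Scarb2 holds the single triangle, and the other 6 lines are empty.

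Values are log2 signals relative to each gene's own median over the 6 arrays, so that a gene can be compared between arrays while its level is not known. The rounding of the numbers still shows, with some clusters misplaced, whether a cluster lay at 4 to 8 or at 8 to 16 on the log2 scale before it was centred. All 10 genes lay in this brighter class, as did 6859 of all genes (41.4%). Knockdown array 2 was the widest, with a standard deviation of 0.159 over all clusters, beside 0.0531 to 0.0780 on the other 5. On that array the brighter clusters had a median of -0.029 and the dimmer ones 0.069. Of 17 sympathetic and neuronal marker genes measured, 12 lay in the brighter class, against 0 of 8 glial, 0 of 6 fibroblast, 0 of 5 macrophage and blood, and 2 of 8 endothelial and epithelial markers. Relative to the empty vector mean, the glial markers had medians of 0.011, 0.16 and 0.029 on knockdown arrays 1, 2 and 3, and the fibroblast markers 0.027, 0.26 and -0.12. Macrophage and blood markers were at 0.056, 0.063 and 0.022, endothelial and epithelial ones at 0.029, 0.088 and -0.028. In these 4 lists 0 genes stood at an unadjusted limma p under 0.05. Of the 17 sympathetic and neuronal markers 3 did, all lower (2.65% of all genes were), with a list median of 0.00063. They were Dbh, which encodes the enzyme that makes noradrenaline (log2 change -0.25 ± 0.051, SE), Elavl4, a neuronal RNA-binding protein gene (-0.13 ± 0.042), and Chgb, which encodes a protein of secretory granules (-0.15 ± 0.055), and the groups did not overlap for any of the 3. The part of all these markers in the results below was not tested.

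Both targeted genes were lower in the knockdown cells. Usf1 was at -0.28, -0.18 and -0.26 on the knockdown arrays and at 0.18, 0.32 and 0.43 on the empty vector arrays, a log2 change of -0.55 ± 0.068 (SE) or 0.682-fold. Usf2 was at -0.22, -0.13 and -0.12 on the knockdown arrays and at 0.12, 0.28 and 0.27 on the empty vector arrays, a log2 change of -0.38 ± 0.058 (SE) or 0.770-fold. The groups did not overlap for either target, and the limma p adjusted over all genes was 0.320 for Usf1 and 0.348 for Usf2. In a bulk sample a change in fewer cells and a smaller change in every cell cannot be told apart.

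Differences of the lysosomal membrane genes between knockdown and empty vector cells were small, and 0 of the 10 passed the threshold of 0.05 after adjustment over all genes (limma adjusted p from 0.996 to 0.999). That threshold was passed by 1 of the 16583 genes (0.00603%). At an unadjusted limma p under 0.05, 1 of the 10 genes was counted, Lamp1, and it was higher after knockdown. The background is 4.25% of all genes in either direction, 1.6% higher and 2.65% lower. For 2 of the 10, Lamp1 and Cd63, all knockdown arrays lay above all empty vector arrays, as for 4.33% of all genes, and for 0 of the 10 they lay below, as for 5.95% (10.3% in either direction). These are counts of 1 and 2 in 10 genes, and nothing particular to the group is read from them. By sign, 5 genes had a change above 0 and 5 below 0. Their median change was 0.0045 on the log2 scale, beside -0.00066 over all genes. Their median absolute change was 0.038, beside 0.040 over all genes and 0.035 over genes of the brighter class, in which all 10 lay.

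**Figure D2:**
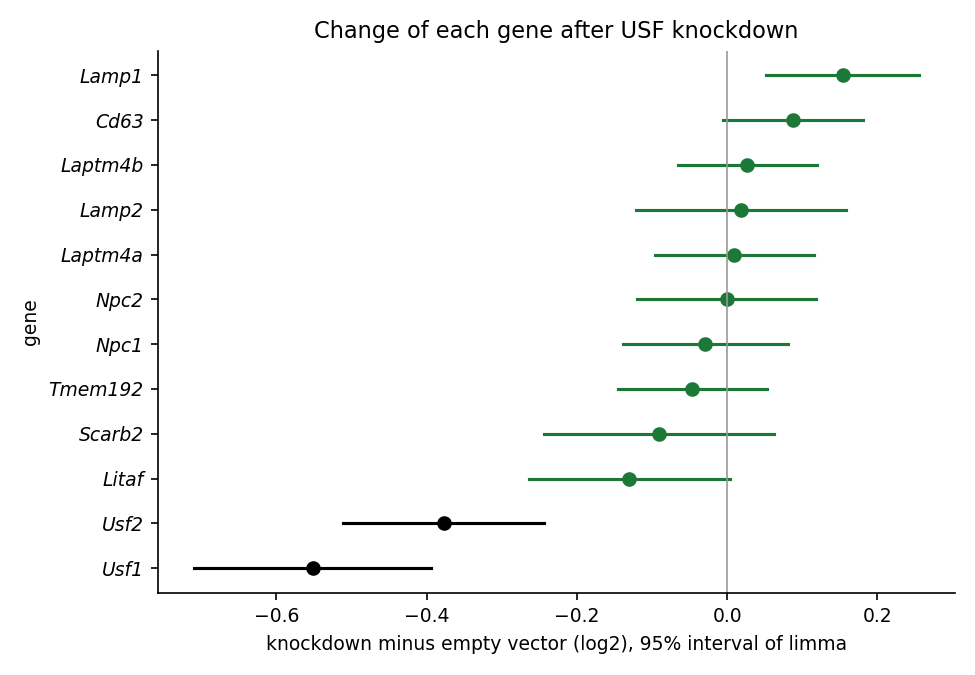
Log2 change, knockdown minus empty vector, of the 10 lysosomal membrane genes (green) and of Usf2 and Usf1 (black), with the 95% interval of limma (3 arrays per group). The interval of Lamp1 lies above 0, those of the other 9 lysosomal genes include 0, and those of Usf1 and Usf2 lie below 0.

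Lamp1, one of the most abundant glycoproteins of the lysosomal membrane, showed the largest change of the 10. Its relative signal was 0.052, 0.044 and 0.11 on knockdown arrays 1, 2 and 3, and -0.044, -0.11 and -0.096 on empty vector arrays 1, 2 and 3. Every knockdown array stood above every empty vector array. The means were 0.069 ± 0.036 with knockdown and -0.085 ± 0.037 with empty vector (SD, n = 3 each). The change was 0.15 ± 0.044 on the log2 scale (SE), a fold of 1.11 with a 95% interval from 1.04 to 1.19. Its limma p was 0.00825 unadjusted, rank 127 of 16583 genes, and 0.996 adjusted over all genes, so it is not called here.

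Lamp2, the second LAMP glycoprotein, which also takes part in chaperone-mediated autophagy and in the fusion of autophagosomes, was at 0.062, -0.12 and 0.063 on the knockdown arrays and 0.036, -0.036 and -0.046 on the empty vector arrays. Knockdown arrays 1 and 3 lay above all empty vector arrays and knockdown array 2 below all of them. The log2 change was 0.018 ± 0.060 (SE), with a 95% interval from -0.12 to 0.16. It was 0.078 when knockdown array 2 was left out. The paralogues were also compared within each array. The difference Lamp1 minus Lamp2 was -0.0095, 0.16 and 0.047 on the knockdown arrays and -0.080, -0.079 and -0.049 on the empty vector arrays. It was higher in 3 of 3 knockdown arrays, by 0.14 on average. A two-sided exact permutation test gave p = 0.10, which is its lower limit with 3 arrays a side, and 0.30 adjusted over the 3 gene pairs compared this way. The largest value of Lamp1 minus Lamp2 was on knockdown array 2, the widest array, where Lamp2 was lowest. Without that array the log2 changes were 0.17 for Lamp1 and 0.078 for Lamp2.

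**Figure D3:**
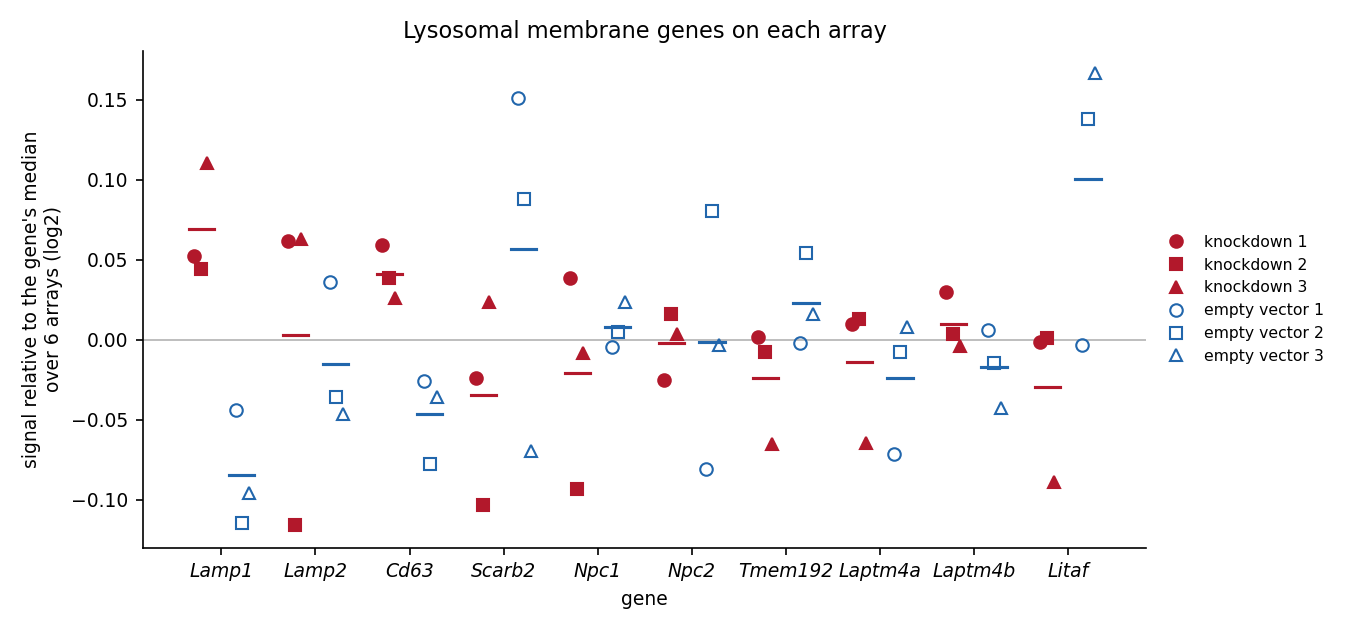
Relative log2 signal of each lysosomal membrane gene on the 3 knockdown arrays (filled red) and the 3 empty vector arrays (open blue), with short lines at the group means. For Lamp1 and Cd63 the red points all lie above the blue ones, and the red square of knockdown array 2 is the lowest point of Lamp2, Scarb2 and Npc1.

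Cd63, a tetraspanin of late endosomes and lysosomes that is also carried on exosomes, was at 0.059, 0.038 and 0.026 on the knockdown arrays and -0.026, -0.078 and -0.036 on the empty vector arrays. The groups did not overlap, and the 3 knockdown values were close together (SD 0.017). The log2 change was 0.088 ± 0.040 (SE), 1.06-fold with a 95% interval from 0.996 to 1.13, at an unadjusted limma p of 0.0622. That p was 0.0300 when only genes of the brighter class were fitted, 0.110 with the replicate number as a block, and 0.0670 to 0.176 with 1 array left out, where 0 of 6 fits gave a p under 0.05.

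Scarb2, also called LIMP-2, is the receptor that carries the enzyme beta-glucocerebrosidase to the lysosome. It was at -0.024, -0.10 and 0.024 with knockdown and 0.15, 0.088 and -0.070 with empty vector. Empty vector array 3 lay below the other 2 of its group and among the knockdown arrays. The log2 change was -0.091 ± 0.066 (SE), with an unadjusted limma p of 0.208 and an exact two-sided permutation p of 0.30. It was -0.15 without empty vector array 3 and -0.044 without empty vector array 1.

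NPC1 and NPC2 pass cholesterol from the lysosome's interior to and through its membrane, and loss of either causes Niemann-Pick disease type C. Npc1 was at 0.038, -0.094 and -0.0084 on the knockdown arrays and -0.0045, 0.0045 and 0.024 on the empty vector arrays. Its spread lay in the knockdown group (SD 0.067, against 0.014 with empty vector), where array 2 was lowest. The log2 change was -0.029 ± 0.047 (SE, 95% interval from -0.14 to 0.081), and it was 0.0071 without knockdown array 2. Npc2 was at -0.025, 0.016 and 0.0032 with knockdown and -0.081, 0.080 and -0.0032 with empty vector. Here the empty vector arrays spread more widely than the knockdown arrays, which lay between them. The log2 change was -0.00067 ± 0.051 (SE, 95% interval from -0.12 to 0.12). Within arrays, Npc1 minus Npc2 averaged -0.019 ± 0.087 with knockdown and 0.0092 ± 0.077 with empty vector (SD, n = 3 each; exact two-sided permutation p = 0.70, 0.80 adjusted over the 3 pairs).

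Among the small proteins with several membrane spans or a membrane anchor, Litaf had the largest change. LITAF is a protein of late endosomal and lysosomal membranes whose mutation causes a form of Charcot-Marie-Tooth neuropathy. It was at -0.0012, 0.0012 and -0.089 on the knockdown arrays and -0.0033, 0.14 and 0.17 on the empty vector arrays. Empty vector array 1 lay with the knockdown arrays, so the groups overlapped, and the log2 change was -0.13 ± 0.058 (SE), 0.914-fold, with an unadjusted limma p of 0.0548 and an exact two-sided permutation p of 0.30. Without empty vector array 1 it was -0.18 and without empty vector array 3 it was -0.097. Tmem192, a lysosomal membrane protein widely used as a handle to isolate lysosomes, was at 0.0019, -0.0078 and -0.065 with knockdown and -0.0019, 0.054 and 0.016 with empty vector. The highest knockdown array and the lowest empty vector array were nearly level, and the log2 change was -0.046 ± 0.043 (SE), with an unadjusted limma p of 0.309 and an exact two-sided permutation p of 0.20.

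LAPTM4A and LAPTM4B are related membrane proteins of late endosomes and lysosomes. Laptm4a was at 0.0095, 0.013 and -0.065 on the knockdown arrays and -0.071, -0.0077 and 0.0077 on the empty vector arrays. Each group had 1 low array, and the log2 change was 0.0098 ± 0.046 (SE, 95% interval from -0.096 to 0.12). Laptm4b varied least of the 10 (pooled SD within groups 0.021). It was at 0.030, 0.0038 and -0.0038 with knockdown and 0.0059, -0.014 and -0.043 with empty vector, which overlapped, with a log2 change of 0.027 ± 0.040 (SE, 95% interval from -0.066 to 0.12). Within arrays, Laptm4a minus Laptm4b averaged -0.024 ± 0.035 with knockdown and -0.0068 ± 0.065 with empty vector (SD, n = 3 each; exact two-sided permutation p = 0.80, also 0.80 adjusted over the 3 pairs).

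**Figure D4:**
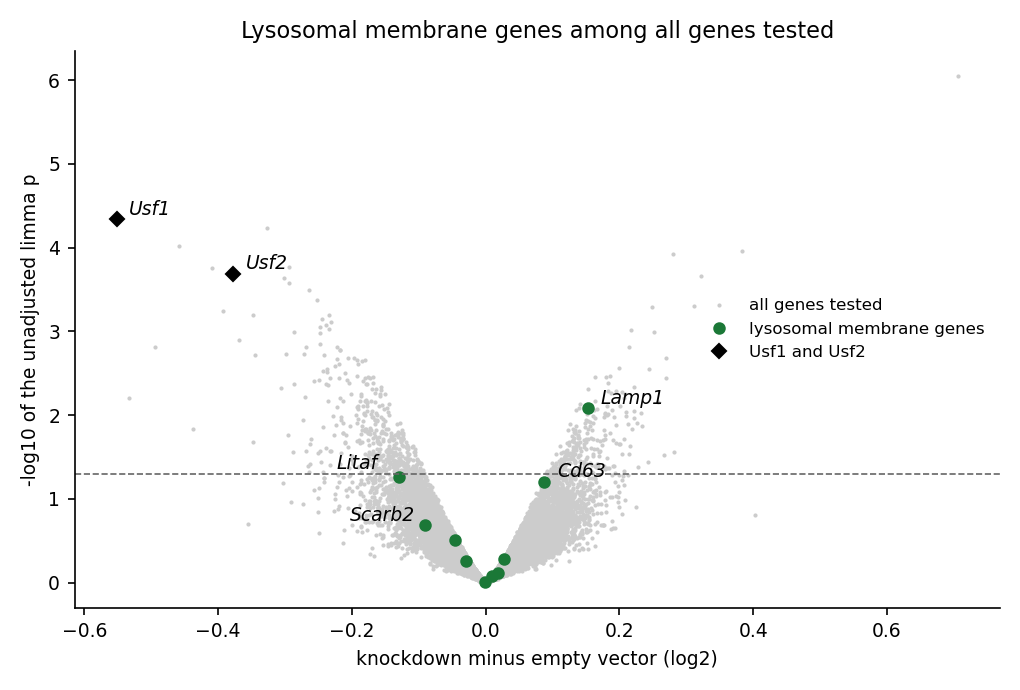
Log2 change, knockdown minus empty vector, against -log10 of the unadjusted limma p for 16583 genes (grey), the 10 lysosomal membrane genes (green) and Usf1 and Usf2 (black). The dashed line marks an unadjusted p of 0.05. Lamp1 lies above it, Litaf and Cd63 just below it.

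The intervals also bound what these arrays could have missed. Over the 10 genes the 95% intervals, which are not adjusted for their number, reached from 0.833-fold (Litaf) to 1.19-fold (Lamp1). Folds may be compressed on an array. The spread within groups was a median of 0.046 for the 10 genes, beside 0.053 for all genes of the brighter class. Leaving out 1 array at a time, the changes of Lamp1, Cd63, Scarb2, Tmem192, Laptm4b and Litaf kept their sign in 6 of 6 fits, and those of Lamp2, Npc1, Npc2 and Laptm4a did not. Lamp1 lay between 0.13 and 0.17 in these fits, with an unadjusted limma p from 0.00517 to 0.0346.

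**Figure D5:**
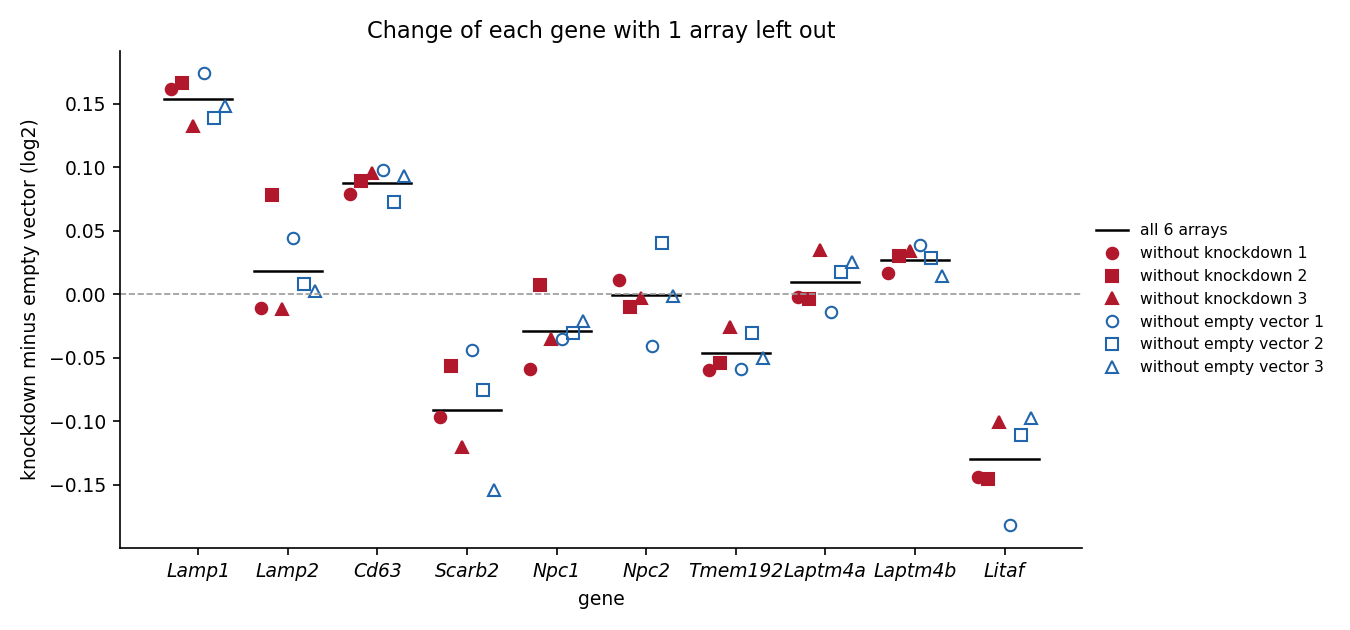
Log2 change, knockdown minus empty vector, of each lysosomal membrane gene with 1 array left out (filled red for knockdown arrays, open blue for empty vector arrays) and with all 6 arrays (black line). Lamp1 stays between 0.13 and 0.17, and Lamp2 moves to 0.078 without knockdown array 2.

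The E-box counts can be set beside the changes. Among 13071 tested genes with a promoter window, 4 held 4 or more copies of CACGTG in a window. These were Mfsd1, Lamp1, the zinc finger gene Zmym6 and the cell cycle kinase gene Cdk4, the last 2 named after their values were seen. Mfsd1 was at 0.15, 0.17 and 0.058 on the knockdown arrays and -0.058, -0.069 and -0.096 on the empty vector arrays. Its groups did not overlap, and its log2 change of 0.20 ± 0.046 (SE) had an unadjusted limma p of 0.00270 and an adjusted p of 0.879. Zmym6 had a log2 change of 0.083 ± 0.076 (SE) and Cdk4 one of -0.0029 ± 0.053. At an unadjusted limma p under 0.05 stood 4.01% of the 11686 genes with 0 copies (184 higher, 285 lower), 6.45% of the 1241 genes with 1 copy (23 higher, 57 lower) and 9.68% of the 124 genes with 2 copies (6 higher, 6 lower). With 3 copies there were 16 genes, 1 higher and 1 lower (12.5%). Over all 13071 genes the share was 4.32% (216 higher, 349 lower). The median log2 change was -0.0012, -0.0033 and -0.0083 with 0, 1 and 2 copies, 0.057 with 3 and 0.12 with 4 or more. The 16 genes with 3 copies ranged from -0.49 to 0.18, and the 4 genes with 4 or more include Lamp1 itself. These shares and medians are descriptions of promoter letters with no test, and genes with and without the letters can differ in brightness and base composition.

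Related genes were read from lists. Over all genes, 4.25% stood at an unadjusted limma p under 0.05 (1.6% higher, 2.65% lower). Among relatives of the 10 by family (other LAMP proteins, tetraspanins, CD36-type receptors and the like), 12 of 17 listed were measured and 0 stood at an unadjusted limma p under 0.05, with changes from -0.076 (the tetraspanin Cd151) to 0.15 (Lamp5, a neuronal LAMP-like protein). Genes that sort lysosomal membrane proteins, such as the adaptor complexes AP-1, AP-2 and AP-3 and the BLOC complexes, had all 33 measured and 0 at that threshold, with a median log2 change of 0.010. Of 14 genes measured of lysosomal lipid and cholesterol handling, 1 stood at that threshold and was lower, Osbpl1a, an oxysterol-binding-protein relative of late endosomes (-0.17 ± 0.057, SE), with a list median of 0.015.

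Other lysosomal membrane proteins, all 34 measured, had 3 genes at an unadjusted limma p under 0.05 (1 higher, 2 lower) and a median log2 change of -0.00014. Ctns, the cystine exporter, had the largest of these changes at -0.46 ± 0.063 (SE, limma adjusted p = 0.328), Mfsd1 was the higher one, and Acp2, a membrane-tethered acid phosphatase, had -0.15 ± 0.062, which was -0.081 without knockdown array 2. Of 16 measured genes of lysosome positioning and fusion, 2 were at that threshold. They were Rab7, the late endosomal GTPase (0.13 ± 0.045, SE), and the SNARE gene Vti1b (-0.18 ± 0.067, and -0.10 without knockdown array 2), with a list median of -0.026. Over these 5 lists 0 genes passed after adjustment over all genes in limma. The share of all genes at the unadjusted threshold was 4.25% (1.6% higher, 2.65% lower), and nothing particular to a list is read from these counts.

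By root mean square difference of the 6 relative values, the genes most like Lamp1 were Nfya (0.020 on the log2 scale), Ctsb (0.020) and Atp6v1a (0.023), and those most like Lamp2 were Map9 (0.0094), BC005537 (0.012) and Dbf4 (0.013). With 6 arrays and 16583 genes to choose from, close matches are easy to find, so these names are a description only.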

How the data were processed

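RNA of Neuro2a cells was measured on Affymetrix Mouse Gene 1.0 ST arrays after amplification with an Ambion WT kit and biotin labelling with an Affymetrix one, per the labels' protocols. The deposited table held 6 arrays and 22891 transcript clusters, read here as log2 values relative to each cluster's own median (largest absolute median 5e-07). How background was corrected and arrays were normalized is not given in the sources used here. The log2 scale and the brightness class come from the rounding step of the numbers (tolerance 0.15 of a step). It placed 9383 clusters at 8 to 16 and 12662 at 4 to 8, with 846 unknown. A dimmer cluster whose differences all happen to be multiples of the coarser step is counted as brighter. How many clusters are misplaced in this way was not estimated. Depth is not defined for arrays, whose number limits the precision (median SE 0.056). Groups and replicate numbers came from the sample titles.

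Clusters with 1 symbol in the platform annotation (18087) were averaged by gene. The limma package (3.58.1, under R 4.3.3) fitted changes with lmFit and eBayes on all 16583 genes (4 residual and 3.79 prior degrees of freedom), with Benjamini-Hochberg adjustment over all of them. The fit was tested on simulated data. Gene pairs were compared by exact permutation tests in SciPy 1.17.1. Alternatives were quantile normalization, centring of arrays, trend and robust variance, array quality weights, the replicate number as a block, genes of the brighter class only, clusters of several symbols averaged in, each cluster alone, and leaving out each array. The 10 genes and all lists were chosen with earlier results of these data known. Named genes are the 10, both targets, up to 4 per related list at an unadjusted p under 0.05 and the 3 genes most like Lamp1 and Lamp2. Genes outside this rule are Cd151, Lamp5, Zmym6 and Cdk4. Marker lists were read as medians and counts, their genes named by the same rule. A RefSeq gene table (GRCm38.p6) matched 18023 clusters by Entrez identifier and changed 0 symbols. The deposited table names no genome build, so coordinates are those of RefSeq.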

Additional observations from a re-analysis of the deposited data

How the results depend on the processing

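Each of the 10 genes and both targets was refitted under up to 14 alternatives. Lamp1, Cd63, Scarb2, Tmem192, Laptm4b, Litaf, Usf1 and Usf2 kept their direction in all of them, with Lamp1 between 0.13 and 0.19 and at an unadjusted limma p under 0.05 in 14 of 14. Some of these alternatives could not alter a direction. Trend and robust variance, the replicate block, the brighter class alone and the other treatments of clusters left each of these changes as it was. Without 1 array, the change of Lamp2 ranged from -0.012 to 0.078 (0.063 with quantile normalization and 0.087 with array weights), that of Npc1 from -0.059 to 0.0071, that of Npc2 from -0.040 to 0.040 and that of Laptm4a from -0.014 to 0.035. Npc2 was at 0.00045 with arrays centred on their medians. Array quality weights put 33.0, 0.136 and 0.441 on knockdown arrays 1, 2 and 3, so that fit in effect compares 1 knockdown array. It alone took Lamp1 (0.14, limma adjusted p = 0.0210), Cd63 (0.11, 0.0413), Usf1 (-0.62) and Usf2 (-0.46) past the threshold over all genes and turned Npc1 to 0.026.

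Of the 10 genes, 1 stood at an unadjusted limma p under 0.05 with all arrays. The share of all genes was 4.25%. The count was 3 with quantile normalization (Lamp1, Cd63 and Litaf, beside 5.38% of all genes, 407 higher and 485 lower), 3 in the brighter class alone (the same 3, beside 7.93% of its 6859 genes), 2 with trend and robust variance (Lamp1 and Cd63, beside 4.25%), 4 with array weights (these 3 and Lamp2, beside 26.3%), and 1 to 2 without 1 array (beside 2.23% to 7.53%). Over all genes, 1 passed the adjusted threshold (705 unadjusted, of which 266 higher), 6 with trend and robust variance, 1111 with array weights (4356 unadjusted), and 0 to 1 without 1 array (369 to 1248 unadjusted). With the replicate block 0 genes passed in limma (636 unadjusted) and the change of Lamp1 stayed at 0.15, with an unadjusted limma p of 0.0200. Deviations from the group means correlated at 0.0031, 0.082 and 0.036 between same-numbered samples, and at -0.094 to 0.054 between differently numbered ones. The labels do not say whether same-numbered samples shared a culture or batch. With 3 arrays a group these values cannot decide whether the samples were paired. The causes of these shifts were not tested. Signal over background is not kept in the deposited values, so a weak probe response cannot be told from a small change.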
